A study of Mus musculus with 4 samples.

Results

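Vimentin and 6 other genes that carry out mesenchymal cell functions were followed in keratinocytes of newborn mice with and without normal Ovol2. The 7 genes were taken by symbol from the table of expression values: the intermediate filament gene Vim, the cadherins Cdh2 and Cdh11, the secreted proteins Lgals1 and Spock1, and the receptors Axl and Cd44. Each matched 1 row, so the set makes up 7 of 23970 gene symbols. The libraries came from primary keratinocytes at passage 0, grown in low-calcium medium on J2-3T3 feeder cells, a mouse fibroblast line whose division had been blocked and which was taken off before extraction. All were from newborn mice and had no further treatment. The groups were 2 libraries of control genotype and 2 libraries labelled Ovol2-deficient. The sources used here do not say how Ovol2 was altered, in which cells, or how many animals each library came from. The p-values therefore measure only the spread between these libraries, which may be technical.

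An epithelial cell that takes on mesenchymal traits changes its internal filaments from keratins toward vimentin, its adhesion from E-cadherin toward N-cadherin or cadherin-11, and its secreted and surface proteins. Ovol2 is a zinc-finger transcription factor of epithelia that is known for repressing mesenchymal genes, among them those of the Zeb factors. In skin, vimentin is typical of dermal fibroblasts, melanocytes and other non-epithelial cells, while Cd44 and Axl are also made by cultured keratinocytes.

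Short stretches of promoter sequence are shown for Vim, the member that passed the test, and for Axl and Cd44, the members with values on the other side of 0. They come from a set of RefSeq promoter sequences (GRCm38.p6, the build also called mm10). The set at hand held 4 of the 7 members, which says nothing about RefSeq as a whole. Positions are counted back from -1, the base before the transcription start. Capitals mark common core promoter boxes, each searched by its exact letters on both strands, and no match overlaps another. The TATA box was searched as TATAAA. For Vim, stretches of 30 bases are given, because GENCODE M21 also annotates a longer Vim transcript there. The Vim stretches lie at chr2:13574205-13574234 and chr2:13574267-13574296 (plus strand), that of Axl at chr7:25788734-25788833 and that of Cd44 at chr2:102901666-102901765 (both minus strand).
Vim, -106 to -77, CCAAT box on the reverse strand: ttccgggtccccATTGGctggctcgctcgg
Vim, -44 to -15, TATA box: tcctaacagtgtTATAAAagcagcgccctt
Axl, -100 to -1, GC box: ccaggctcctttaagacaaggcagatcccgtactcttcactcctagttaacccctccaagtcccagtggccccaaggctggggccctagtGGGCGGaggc
Cd44, -100 to -1, none of these boxes: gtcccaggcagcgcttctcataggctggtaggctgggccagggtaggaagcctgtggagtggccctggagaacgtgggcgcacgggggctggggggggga
The GC box was searched as GGGCGG, and the CCAAT box by the letters of its name. Over the 250 bases before each start, Vim held 1 TATA box, at -32, and CCAAT boxes at -196 and -94, while Axl held 1 GC box, at -10, and Cd44 held none of the 3 boxes. Of 32817 promoter windows of that length, 12.4% held the TATA box, 33.8% the CCAAT box and 32.7% the GC box. The letters CCGTTA, the core bound by Ovol factors, were in none of the windows of Vim, Axl, Cd44 and Spock1, and in 2.17% of all windows. CACCTG, an E-box that Zeb and Snai factors can bind, was likewise in none of those 4 windows and in 17.2% of all. A match is a description of the letters, and the absence of one says nothing about binding elsewhere.

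Expression was deposited as FPKM, the fragments of a transcript divided by its length and by the mapped fragments of the library, which allows levels of different genes to be set side by side. About 12400000 to 14800000 reads per library lay behind the values, as inferred from the authors' deposited table. Ovol2 itself stood at FPKM 2.68 and 2.14 in control libraries against 1.45 and 0.941 in deficient ones, with no overlap but without passing the test in limma (adjusted p = 0.129). The 10 keratinocyte markers were present in every library, at FPKM 13.1 to 2960 across markers and libraries. In limma, run on log2(FPKM + 1) over the 11350 genes that averaged at least FPKM 1, a gene passed at an adjusted p under 0.05. The test called 1.35% of genes, 0.837% as higher and 0.511% as lower in the deficient libraries. An unadjusted p under 0.05 was reached by 17.4% of genes. The fold changes below are on that log2 scale, which understates the change of low genes.

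Of the 7 members, Vim rose, 5 did not pass, and Spock1 was listed at 0 in all 4 libraries and was not tested. The members did not share a direction: Vim, Lgals1, Cdh2 and Cdh11 had both deficient values above both controls, and Axl and Cd44 had both below. Among all genes tested the groups did not overlap for 48.1%, with 24.1% higher and 24.0% lower, so a lack of overlap is common in these libraries. The median log2 fold change of the 6 tested members was 0.42, beside -0.0014 over all genes tested. In the controls the order of the levels was Lgals1, Vim, Cd44, Axl, Cdh2, Cdh11 and Spock1. Lgals1 lay above Vim in both controls, whereas in the deficient libraries the ranges of the pair overlapped. All other neighbours in that order kept apart in both groups.

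**Figure D1:**
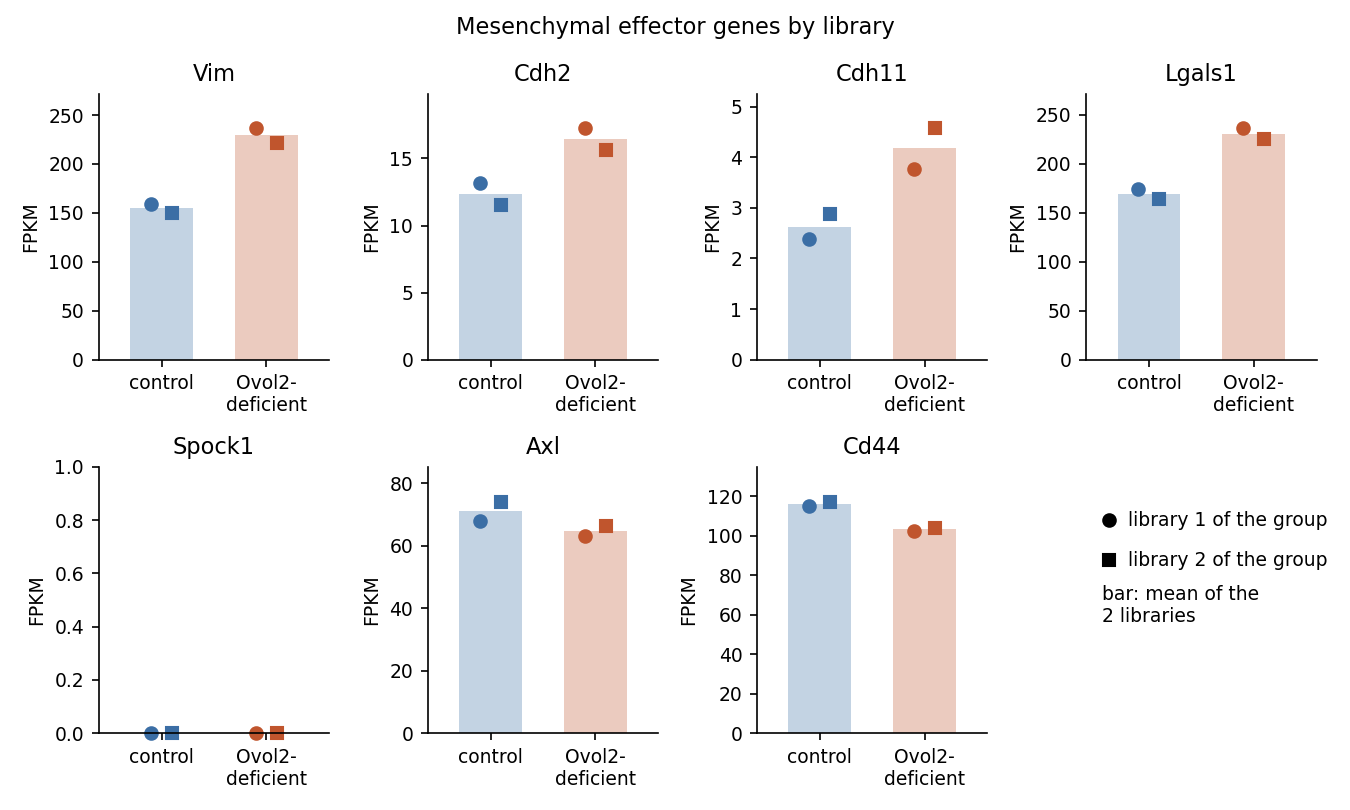
FPKM of each of the 7 members in the 2 control and the 2 Ovol2-deficient libraries, each panel with its own axis from 0; points are libraries and bars are means of 2. Vim, Cdh2, Cdh11 and Lgals1 sit higher in both deficient libraries, Axl and Cd44 sit lower, and Spock1 is at 0 throughout.

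Vimentin forms the cytoplasmic filaments of mesenchymal cells. Vim (ENSMUSG00000026728.9, chr2:13573927-13582826, plus strand) had values of FPKM 159 and 150.1 in control libraries against 237 and 222 in deficient ones. The gap between the groups was wider than the distance between the libraries of either. The mean rose from 155 ± 6.62 to 229 ± 10.4 (SD, n = 2 per group), 1.48-fold, with a log2 fold change of 0.56 (SE 0.09, 95% interval 0.34 to 0.79, limma adjusted p = 0.0473). The call was lost with any 1 library left out, where the adjusted p ran from 0.0609 to 0.220 and the log2 fold change from 0.52 to 0.61. It was also lost under quantile normalization (adjusted p = 0.0548), without the variance trend (0.0730) and without the filter on low values (0.224).

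Among 10 listed genes for other filaments, lamins and the linker plectin, 5 were expressed enough to be tested, of which 1 fell and 4 did not pass. Their median log2 fold change was -0.17. Lmnb1, a lamin of the nuclear envelope, fell from 25.4 ± 2.58 to 14.5 ± 0.412 (log2 fold change -0.77, limma adjusted p = 0.0392). Plec, the linker between filaments and junctions, stood at FPKM 48.5 and 60.3 in control libraries against 45.0 and 51.0 in deficient ones, with overlap. Des and Nes, filament genes of muscle and of progenitor cells that can assemble with vimentin, had FPKM of at most 1.29 in any library. All 10 keratinocyte markers had log2 fold changes below 0, with a median of -0.25. Of the 11350 genes tested, 5627 lay above 0. Among the 10 markers 1 fell in limma, as 0.511% of all genes did. It was Lamb3, which encodes a laminin chain (log2 fold change -0.68, limma adjusted p = 0.0353). Neither Lmnb1 nor Lamb3 passed without either deficient library, without the filter on low values, without the variance trend or under quantile normalization. The authors' deposited table called 3 of the 10 keratinocyte markers lower, Lamb3, Itga6 and Col17a1, and 1 of 7 of the filament list, Lmnb1. That table called 2.1% of all its rows with an adjusted p lower. Krt15, one of the keratinocyte markers, had a log2 fold change of 0.70 without control 1 and of -0.90 without control 2. The keratin Krt14 stood at 2225 and 2292 in control libraries against 2280 and 1773 in deficient ones (adjusted p = 0.642).

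N-cadherin (Cdh2) and cadherin-11 (Cdh11) are adhesion molecules of mesenchymal cells. Cdh2 (ENSMUSG00000024304.14, chromosome 18, minus strand) had values of FPKM 13.1 and 11.5 in control libraries against 17.3 and 15.6 in deficient ones. The groups did not overlap, and the deficient mean was 1.33 times the control mean. Its log2 fold change was 0.39 (SE 0.11, 95% interval 0.13 to 0.65), which did not pass in limma (adjusted p = 0.132). A gene on the other strand, Gm15485, overlaps Cdh2, and the library kit is not stated to keep strand. Reads from any shared exon could not be told apart, and whether exons overlap was not examined. Cd44 and Ovol2 also have such an overlap, with Gm23731 and 1700108N11Rik. Cdh11 (ENSMUSG00000031673.6, chr8:102632095-102785642, minus strand) was the lowest member with a signal. It stood at 2.39 and 2.87 in control libraries against 3.78 and 4.58 in deficient ones, again without overlap. Control libraries averaged 2.63 ± 0.342 and deficient ones 4.18 ± 0.564 (SD, n = 2 per group), a ratio of 1.59. The log2 fold change of Cdh11 was 0.51 (SE 0.14, 95% interval 0.17 to 0.85, limma adjusted p = 0.132). At a pseudocount of 0.1 in place of 1 its log2 fold change was 0.65, with an adjusted p of 0.130.

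The epithelial cadherins had values on the other side. E-cadherin (Cdh1) stood at FPKM 172 and 162 in control libraries against 141 and 130.3 in deficient ones, a log2 fold change of -0.30 (limma adjusted p = 0.167). P-cadherin (Cdh3), typical of basal keratinocytes, stood at 61.0 and 66.4 against 51.3 and 49.0 (log2 fold change -0.34, adjusted p = 0.123). Of 7 tested genes among other cadherins and catenins, none passed in limma and 3 had an unadjusted p under 0.05 (17.4% of all genes). The authors' deposited table called 2 lower, Cdh1 and Cdh3 (adjusted p = 0.0356 and 0.0250), and 0 higher. Of all its rows with an adjusted p, 2.1% were called lower. Within a library, the ratio of Cdh2 to Cdh1 FPKM was 0.0764 and 0.0708 in control libraries against 0.122 and 0.120 in deficient ones. E-cadherin was the more abundant of the pair in all 4 libraries. The ratio was 1.65 times higher in the deficient libraries, and the groups were separate. An exact permutation test over libraries gave p = 0.333 (two-sided), the smallest value that 2 against 2 allows.

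Galectin-1, the product of Lgals1, is a secreted lectin that binds glycans on surface and matrix proteins. Lgals1 (ENSMUSG00000068220.6, chr15:78926725-78930465, plus strand) had values of FPKM 174 and 164 in control libraries against 236 and 225 in deficient ones. The groups were well apart, with means of 169 ± 7.52 and 231 ± 7.98 (SD, n = 2 per group), a ratio of 1.36. Its log2 fold change was 0.45 (SE 0.09, 95% interval 0.23 to 0.67) and did not pass in limma (adjusted p = 0.0676). Of 7 tested genes among other galectins and their ligands, none passed in limma and 3 had an unadjusted p under 0.05 (17.4% of all genes). The authors' deposited table called 0 of 6. Lgals7, the galectin typical of stratified epithelia, stood at 814 and 652 in control libraries against 582 and 529 in deficient ones (log2 fold change -0.39, adjusted p = 0.199). The galectin Lgals9 and the galectin ligand Lgals3bp had log2 fold changes of 0.51 and 0.59 (limma adjusted p = 0.147 and 0.135). Lgals3 stood at 291 and 242 against 322 and 270.3, with overlap.

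Spock1, a secreted proteoglycan of the SPARC family (ENSMUSG00000056222.15, chr13:57421195-57908332, minus strand), was listed at 0 in every library, and its mean normalized signal in the authors' deposited table was 0. Its relatives Spock2 and Spock3 had FPKM of at most 0.202 in any library. Of the SPARC-related list 2 genes were expressed enough to be tested. Sparc, a matrix protein made by fibroblasts, stood at 96.9 and 80.1 in control libraries against 106 and 102 in deficient ones (limma adjusted p = 0.352). Fstl1 stood at 43.4 and 47.1 against 59.9 and 61.8, with a log2 fold change of 0.42 (limma adjusted p = 0.0731), and the authors' deposited table called it higher (adjusted p = 0.0150).

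Axl is a receptor tyrosine kinase activated by the ligand Gas6. Axl (ENSMUSG00000002602.16, chr7:25757273-25788705, minus strand) had values of FPKM 68.0 and 74.2 in control libraries against 63.3 and 66.3 in deficient ones. The higher deficient value lay just below the lower control, by less than the distance between the controls. The log2 fold change was -0.13 (SE 0.09, limma adjusted p = 0.530), with a 95% interval of -0.35 to 0.09. Gas6 stood at 28.1 and 28.9 in control libraries against 32.2 and 30.2 in deficient ones (adjusted p = 0.541). None of the 4 genes for related receptors and ligands passed in limma, and 1 had an unadjusted p under 0.05 (17.4% of all genes). That gene was Pros1, a second ligand of this receptor family (log2 fold change 0.38, adjusted p = 0.153), which is named here because of its value. The authors' deposited table called 0 of these 4.

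Cd44 encodes the main receptor for hyaluronan. Cd44 (ENSMUSG00000005087.17, chr2:102811141-102901665, minus strand) had values of FPKM 115 and 117 in control libraries against 103 and 104 in deficient ones. The libraries of each group lay close together, and the deficient mean was 0.889 times the control mean. The log2 fold change was -0.17 (SE 0.09, 95% interval -0.37 to 0.03, limma adjusted p = 0.379). GENCODE M21 lists 9 Cd44 transcripts, and the table gives 1 value for the gene, so splice forms were not analysed here. Esrp1, the epithelial splicing regulator that acts on Cd44, stood at 51.8 and 47.0 in control libraries against 44.8 and 41.3 in deficient ones (adjusted p = 0.377). Among 12 tested partners of Cd44 and hyaluronan genes, none passed in limma and 2 had an unadjusted p under 0.05 (17.4% of all genes). The authors' deposited table called 0 of these 12. The 2 most abundant, the linkers of membrane and actin moesin (Msn) and ezrin (Ezr), had log2 fold changes of -0.14 and 0.30 (adjusted p = 0.490 and 0.290).

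**Figure D2:**
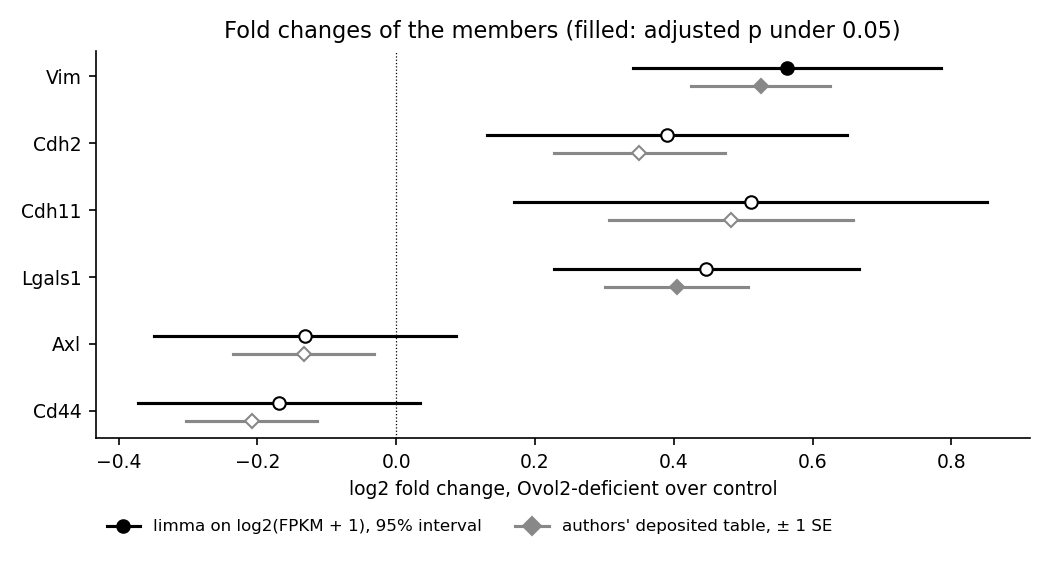
Log2 fold changes of the 6 tested members, Ovol2-deficient over control, from limma with 95% intervals (circles) and from the authors' deposited table with 1 SE to either side (diamonds); filled symbols have an adjusted p under 0.05. Vim is filled in both and Lgals1 in the authors' table, and the intervals of Axl and Cd44 include 0.

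The authors' deposited table, made from the same 4 libraries, gave 4.43% of 11582 rows with an adjusted p under 0.05, 2.33% as higher and 2.1% as lower. Of the 6 members with an adjusted p in the authors' deposited table, 2 were called higher. These were Vim (log2 fold change 0.52, adjusted p = 3.01e-05) and Lgals1 (0.40, adjusted p = 0.00472). Cdh2 had a log2 fold change of 0.35 in the authors' deposited table (adjusted p = 0.0829) and Cdh11 of 0.48 (adjusted p = 0.09998). The authors' deposited table gave Cd44 -0.21 (adjusted p = 0.263) and Axl -0.13 (adjusted p = 0.696). Its mean normalized signal was 8756 for Cd44, 6138 for Axl, 5389 for Vim, 2718 for Lgals1, 1042 for Cdh2 and 237 for Cdh11.

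Transcription factors that drive the transition from epithelial to mesenchymal states are upstream of several members in other systems. Of 10 tested, none passed in limma, 5 had an unadjusted p under 0.05 (17.4% of all genes), and the median log2 fold change was 0.35. The authors' deposited table called 2 of these factors higher, Zeb2 and Prrx1, and 1 lower, Snai2. Of all its rows with an adjusted p, 2.33% were called higher and 2.1% lower. Prrx1 stood at FPKM 40.1 and 48.1 in control libraries against 57.1 and 69.9 in deficient ones (limma log2 fold change 0.52, adjusted p = 0.108). Zeb2 stood at FPKM 3.20 and 4.31 in control libraries against 6.33 and 7.25 in deficient ones (limma log2 fold change 0.72, adjusted p = 0.0668). Zeb1 stood at 1.96 and 2.57 against 2.91 and 3.71 (0.40, adjusted p = 0.264). Snai2 had lower values in the deficient libraries, at 34.3 and 31.8 against 46.4 and 60.0 in the controls (-0.66, adjusted p = 0.0608). Twist2 and Snai1 had log2 fold changes of 0.74 and 0.46 (limma adjusted p = 0.0572 and 0.313). The log2 fold change of Snai2 was -0.84 without control 1. Without control 2, those of Zeb2, Twist2 and Snai1 were 0.89, 0.91 and 0.79.

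Other mesenchymal effector genes were also mixed in direction. Of 14 tested, none passed in limma, 9 had an unadjusted p under 0.05, as 17.4% of all genes did, and 11 had log2 fold changes above 0, with a median of 0.33. The authors' deposited table called 4 higher and 2 lower, beside 2.33% and 2.1% of all its rows with an adjusted p. S100a4, a calcium-binding protein of motile and mesenchymal cells, stood at FPKM 267 and 236 in control libraries against 345 and 360.1 in deficient ones (log2 fold change 0.49, limma adjusted p = 0.0703). Fibronectin (Fn1) stood at 60.6 and 72.5 against 83.2 and 103 (0.48, adjusted p = 0.134). The integrin subunit Itgb1 lay on the other side, at 178 and 174 against 126 and 155 (-0.33, adjusted p = 0.216). The matrix protein Tgfbi had a log2 fold change of -0.65 (limma adjusted p = 0.0746). Of 15 epithelial genes, none passed in limma, 2 had an unadjusted p under 0.05 (17.4% of all genes), and the median was -0.16. Cdh1, already counted among the cadherins, was 1 of those 2 and the gene that the authors called lower. The authors' deposited table called 1 of these 15 lower, beside 2.1% of all its rows with an adjusted p. The adhesion genes Epcam and Cldn7 had log2 fold changes of -0.38 and -0.76 (limma adjusted p = 0.218 and 0.287). Of the 15 genes, 5 had log2 fold changes above 0.

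Markers of fibroblasts or feeder cells were examined beside Vim. Of 16 tested, 3 rose in limma, as 0.837% of all genes did, and 13 did not pass. All 16 had both deficient values above both controls, as 24.1% of all genes tested did. The median log2 fold change was 0.54, near that of Vim. The authors' deposited table called 11 of 17 higher, beside 2.33% of all its rows with an adjusted p. Those that rose in limma were Loxl1 and Pcolce, which act in collagen and elastin assembly (log2 fold changes 0.69 and 0.54, adjusted p = 0.0412 and 0.0468), and Serpinf1 (0.64, adjusted p = 0.0470). The median log2 fold change of these 16 was 0.56 without control 1 and 0.50 without control 2. It was 0.58 without deficient library 1 and 0.44 without deficient library 2. None rose in limma without either deficient library, under quantile normalization, without the variance trend and without the filter on low values. The collagen Col1a1 stood at FPKM 34.5 and 38.7 in control libraries against 52.0 and 52.5 in deficient ones (adjusted p = 0.0572). The summed FPKM of all 22 listed markers was 432 to 467 in the controls and 630.3 to 685 in the deficient libraries, 1.46-fold higher. Of 8 defining markers none was at 0 in all libraries, though Lum reached at most 0.0782 and Dcn stood between 0.895 and 1.003. Their part in the change of Vim was not tested, and in bulk RNA a different number of cells of a type and a different amount of RNA per cell cannot be told apart.

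Relative to the summed fibroblast markers, Vim stood at 0.341 and 0.347 in control libraries against 0.375 and 0.324 in deficient ones. The groups overlapped (log2 difference 0.02, exact permutation test, two-sided p = 1). With deficient library 1 left out the difference was -0.09. With the geometric mean of the markers in place of their sum, both deficient ratios (22.4 and 19.2) lay above both controls (19.0 and 18.5), a log2 difference of 0.15 (exact permutation p = 0.333). The ratio of Lgals1 to that sum also overlapped between the groups (0.373 and 0.379 against 0.375 and 0.329), as did those of Cdh2 and Cdh11. Against Cd44, Vim stood at 1.39 and 1.28 in control libraries against 2.31 and 2.14 in deficient ones (exact permutation p = 0.333, two-sided, the smallest possible). The ratio of Vim to Lgals1 was 0.915 and 0.917 in control libraries against 1.001 and 0.986 in deficient ones, a shift of 0.12 on the log2 scale. The ratios other than those to Cdh1 and of Vim to the fibroblast marker sum were chosen after the values had been seen, and no p was adjusted.

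**Figure D3:**
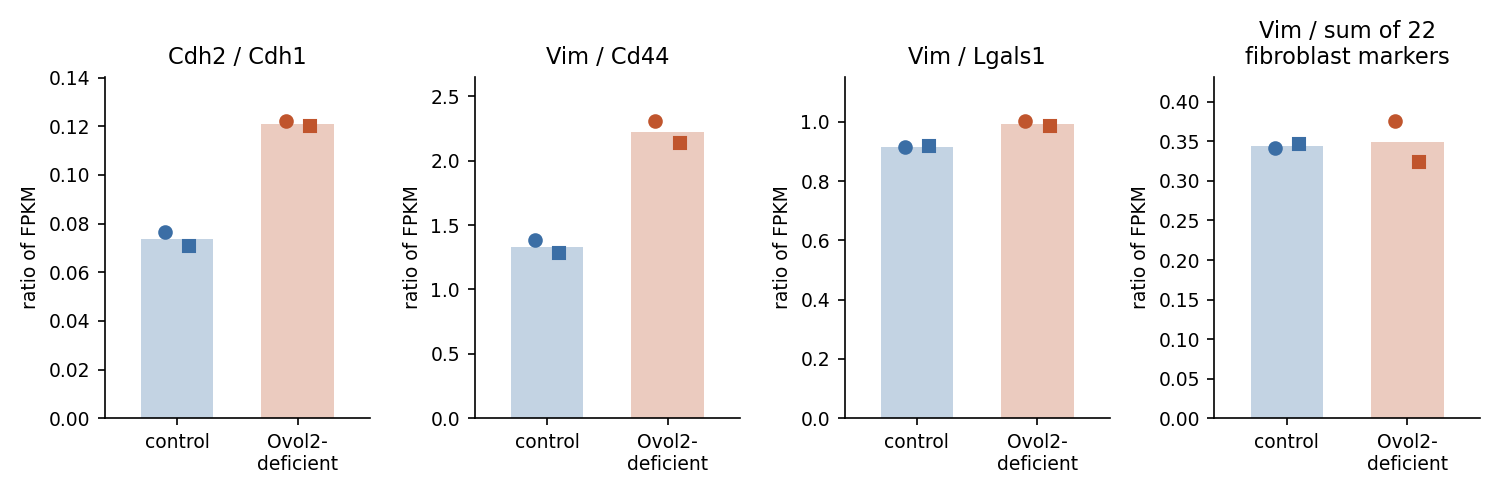
Ratios of FPKM within each library, in the 2 control and the 2 Ovol2-deficient libraries (circle library 1, square library 2, bar mean of 2), each axis from 0. Cdh2 to Cdh1 and Vim to Cd44 separate the groups widely, Vim to Lgals1 separates them narrowly, and Vim to the summed fibroblast markers overlaps at 0.324 to 0.375.

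Melanocytes also contain vimentin. All 6 tested melanocyte markers had both deficient values above both controls (24.1% of all genes), with a median log2 fold change of 0.37. None passed in limma, and 4 had an unadjusted p under 0.05 (17.4% of all genes). The authors' deposited table called 1 of 8 higher, beside 2.33% of all its rows with an adjusted p. Dct, an enzyme of melanin synthesis, stood at FPKM 18.1 and 20.4 in control libraries against 28.1 and 26.5 in deficient ones (log2 fold change 0.48, adjusted p = 0.0676). The summed FPKM of the 9 listed markers was 62.9 to 68.6 in the controls and 85.2 to 91.8 in the deficient libraries. Ednrb, one of these markers and too low to be tested, overlapped between the groups. Vim relative to that sum stood at 2.54 and 2.19 in control libraries against 2.58 and 2.60 in deficient ones. The groups did not overlap (exact permutation p = 0.333, two-sided), and the ratio was chosen after the values had been seen. The part of these markers in the values of Vim was not tested. Immune markers other than Lyz2 had FPKM of at most 0.407. Lyz2, a lysozyme of myeloid cells, stood at 5.59 and 12.3 in control libraries against 9.88 and 7.48 in deficient ones. Of 6 endothelial and mural markers, Cdh5 was at 0 in every library, while Mcam ran from 71.5 to 82.1 and Kdr from 0.904 to 2.77, Pecam1 reached at most 2.37, and none passed in limma.

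**Figure D4:**
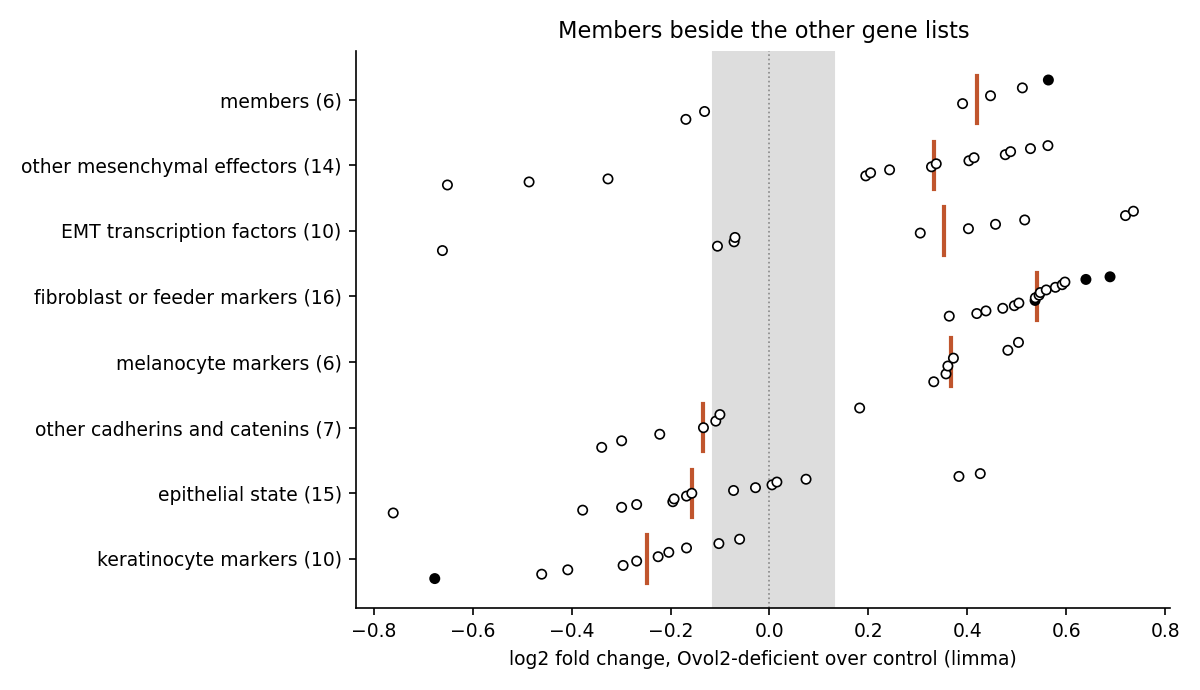
Log2 fold changes in limma for the tested genes of 8 lists (points, filled where the adjusted p is under 0.05; number of genes in brackets), with the list median as a bar, the interquartile range of all 11350 tested genes in grey and their median dotted. The members split into 4 above and 2 below 0, all fibroblast or feeder markers lie above 0, and all keratinocyte markers lie below 0.

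The 5 genes whose pattern over the 4 libraries was most like that of Vim, among 6766 with a mean FPKM of at least 10, were Col6a2, Timp1, Gadd45a, Maoa and Thbd. Likeness was the distance between centred log2(FPKM + 1) profiles, which ran from 0.0401 for Col6a2 to 0.0960 for Thbd. Col6a2, a collagen chain, stood at FPKM 8.36 and 7.60 in control libraries against 12.3 and 11.8 in deficient ones. Timp1, an inhibitor of matrix metalloproteinases, stood at 22.4 and 20.3 against 32.2 and 30.6. Neither Col6a2 nor Timp1 passed in limma (adjusted p = 0.0581 and 0.0531). The other genes, Gadd45a, Maoa and Thbd, did pass as higher (adjusted p = 0.04999, 0.0470 and 0.0419). All 5 were picked for likeness to Vim in these same values, so their direction was set by that choice. Their tests are not a separate result.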

How the data were processed

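Per the labels' protocols, Trizol RNA was turned into full-length cDNA, amplified, and made into libraries with a Nextera kit. TopHat, HTSeq and the build mm10 are named in the submitters' processing notes. The authors deposited FPKM values for 4 libraries (24487 rows). They also deposited a comparison of mutant with control holding a mean normalized signal, log2 fold changes with SE, a test score, and p-values. The sources used here do not say which tools made these values. Columns named mutant were assigned to the Ovol2-deficient group.

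Rows with date-like symbols (27) were dropped and rows sharing a symbol summed, leaving 23970 symbols. Those with a mean FPKM of at least 1 were tested with limma 3.58.1 in R 4.3.3 on log2(FPKM + 1), with group as the only term, a variance trend and Benjamini-Hochberg adjustment over 11350 genes. The fit was also run on simulated data whose noise followed limma's own model. That run checks the code and says nothing about the calls in these libraries. With n = 2 per group, exact permutation p-values cannot go below 0.333. Read totals were inferred from the lowest levels of the authors' mean signal, and no counting interval was computed. Coordinates are from GENCODE M21 (mm10).

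The members and the 15 other lists were chosen with earlier results of these data known. The genes to be named were the members, Ovol2, 11 genes fixed by name, and genes drawn from each list. From a list these were up to 2 called genes per direction and the 2 with the highest level. Not all of them were given in the text, and Pdgfra is among those left out. The 5 genes most like Vim were also named. Where others are named for their values, such as Pros1, the choice was made after seeing them. Alternatives were other pseudocounts, filters and scalings, no variance trend, a replicate block, and leaving out each library.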

Additional observations from a re-analysis of the deposited data

How the results depend on the processing

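The log2 fold changes of Vim, Lgals1, Cdh2, Cdh11, Axl and Cd44 kept their sign under every alternative run. Spock1 had no value in any, and Cdh11 none with a filter of mean FPKM at least 5. Vim lost its call without the filter on low values, without the variance trend (log2 fold change 0.56 in both) and under quantile normalization (0.58), and with 1 library left out (0.52 to 0.61). No member was then called in limma. The cause was not tested. Leaving out 1 library gave log2 fold changes of 0.40 to 0.49 for Lgals1, 0.30 to 0.48 for Cdh2, 0.40 to 0.62 for Cdh11, -0.19 to -0.07 for Axl and -0.18 to -0.16 for Cd44, and none passed. A group then held a lone library, which was assumed to vary like the others.

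With the replicate number as a block, Lgals1 passed (log2 fold change 0.45, adjusted p = 0.0255), 2 members were called and 518 genes in all, beside 153 in the fit without it. The labels tie no number to a shared animal or day, and deviations of same-numbered libraries correlated at 0.220 across genes. The count of genes called was 3 without the filter, 267 with a filter of mean FPKM at least 5, 6 without the variance trend, 5 under quantile normalization (5 higher, 0 lower, beside 95 and 58), 82 with median ratio scaling, and 10 to 397 with 1 library left out. The Cdh2 to Cdh1 difference was 0.66 to 0.77 (log2) with 1 library left out. The Vim to fibroblast marker difference ran from -0.09 to 0.12 and turned negative only without deficient library 1 (-0.0873). It was 0.15 with the geometric mean of the markers in place of their sum. The 2 libraries per group limit what could be detected.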

Other observations

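The keratin and galectin partners of the members gave ratios within a library that were chosen after their values had been seen. Vim relative to Krt14, the keratin of basal keratinocytes, stood at 0.0717 and 0.0655 in control libraries against 0.104 and 0.125 in deficient ones. Lgals1 relative to Lgals7, the galectin of stratified epithelia, stood at 0.214 and 0.251 in control libraries against 0.406 and 0.425 in deficient ones, 1.79 times higher. In both ratios the groups did not overlap, and an exact permutation test (two-sided) gave the smallest p that 2 against 2 libraries allow, 0.333. The simple epithelial keratins Krt8 and Krt18, which are often lost when cells gain vimentin, overlapped between the groups. Krt8 stood at FPKM 2.44 and 5.34 in control libraries against 5.59 and 3.89 in deficient ones, and Krt18 at 2.77 and 9.14 against 8.67 and 6.09. Krt18 had a log2 fold change of 0.42 (limma adjusted p = 0.670), of -0.29 without control 1 and of 1.13 without control 2. Spp1, a secreted ligand of Cd44, stood at 20.6 and 20.2 in control libraries against 28.0 and 31.1 in deficient ones (log2 fold change 0.51, limma adjusted p = 0.0572).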
